A study of Mus musculus with 224 samples.

Results

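The genes Nnt, Glo1, Alad and Gpnmb were chosen because inbred mouse strains are known to differ at them by a deletion, a duplication or a stop variant. Earlier results of these data were known when the choice was made. Each was found by matching its symbol to an Ensembl gene ID, which gave 4 members among the 17494 gene IDs of the liver, soleus muscle and visceral adipose tissue tables. Glo1 and Alad had a row in all 3 tissues, Nnt in liver and muscle, and Gpnmb in muscle and adipose tissue. Transcript levels came from RNA sequencing of 72 inbred mice, taken in equal numbers from BALB/cJ, C57Bl/6J and DBA/2J. Regular chow (RC) was the food of one set of mice and a high fat diet (HFD) that of the other, and tissues were taken on day 5, 13 or 33. This gave 18 groups with 4 animals in each, and each animal gave all 3 tissues. Days are those of the sample labels, since the study's design text gives 5, 13 and 13 days where the labels give day 33. The labels name no engineered allele in any group and give neither the animals' age nor their sex. The labels give no composition for either diet. Levels are log2 CPM, read counts scaled to the library's depth on a log2 scale, and differences between groups are log2 differences.

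Glo1 encodes glyoxalase 1, which clears methylglyoxal, a reactive by-product of glycolysis, and a tandem duplication that spans Glo1 and its neighbours Dnah8, Glp1r and Btbd9 segregates among inbred strains, DBA/2J being a known carrier. Alad encodes delta-aminolevulinate dehydratase, the enzyme that joins molecules of aminolevulinic acid early in haem synthesis and is inhibited by lead. DBA/2J is known to carry extra copies of it. Nnt encodes the nicotinamide nucleotide transhydrogenase of the inner mitochondrial membrane, which makes NADPH for peroxide removal. C57BL/6J mice are known to lack several of its exons. Gpnmb encodes a membrane glycoprotein of pigment cells and lipid-laden macrophages, and DBA/2J is known for a premature stop codon in it that takes part in the pigmentary glaucoma of that strain.

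In GRCm38, the build of the study, Glo1 (ENSMUSG00000024026) lies at chr17:30584936-30626871 on the minus strand and Alad (ENSMUSG00000028393) at chr4:62509169-62519918 on the minus strand. Nnt (ENSMUSG00000025453) lies at chr13:119335448-119408997 on the minus strand and Gpnmb (ENSMUSG00000029816) at chr6:49036546-49070929 on the plus strand. GENCODE M21 holds a second Nnt record, ENSMUSG00000116207, on the same strand at chr13:119335528-119408952, which covers 47.5% of the exonic bases of the first and had no row in any table. Of the coding transcripts of the first record, it covers 2997 of 3122 bases of Nnt-201, 3339 of 3464 of Nnt-202 and 2225 of 3198 of Nnt-203. Whether the annotation used for counting held that record is not given in the sources used here, and its part in the Nnt values was not tested. The reference genome is that of C57BL/6J, so reads of the other strains were aligned across their sequence differences, and the effect of this on the members was not tested.

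Read totals ran from 18078488 to 31991289 for liver libraries, from 19945355 to 33370016 for muscle and from 19783483 to 46795074 for adipose tissue. The labelled tissues carried their own markers, with a mean of the 6 hepatocyte markers of 12.35 to 13.21 in all liver libraries. Libraries that stood apart were found in muscle and adipose tissue. In muscle, the C57Bl/6J RC day 33 library of animal 1RC210 had a mean of slow fibre markers of 4.88 where the lowest other library had 10.84, and the C57Bl/6J RC day 5 library of animal 1RC226 had the highest hepatocyte (8.96) and macrophage (3.87) marker means. In adipose tissue, the BALB/cJ HFD libraries of animals 3HF201 (day 5) and 3HF208 (day 33) had islet hormone markers at a mean of 14.42 and 15.01 where no other library exceeded 4.96, and adipocyte markers at 1.80 and 2.35 where no other fell under 8.43. Unless stated, values were taken over all libraries, and values without these libraries are given beside some of the results that rest on them. In bulk tissue, fewer cells of a type and less RNA per cell cannot be told apart. Nothing in the labels says how the animals of a group were housed or bred, so p-values measure the spread between these animals only.

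Glo1 was higher in DBA/2J and BALB/cJ than in C57Bl/6J in every tissue and on both diets. In liver on RC, the lowest, median and highest of 12 animals were 7.91, 8.16 and 8.37 for C57Bl/6J, 8.66, 9.02 and 9.38 for DBA/2J, and 8.65, 9.05 and 9.41 for BALB/cJ. All animals of either strain lay above all C57Bl/6J animals, as did 8.78% of the 12611 tested liver genes, in either direction, for DBA/2J and 6.3% for BALB/cJ. The log2 difference from C57Bl/6J was 0.84 ± 0.065 (SE) in DBA/2J, a 1.79-fold higher level (limma adjusted p = 5.46e-17), and 0.85 ± 0.065 in BALB/cJ, 1.81-fold (limma adjusted p = 2.70e-17). By this test 48.1% and 46.8% of the liver genes differed, so a call was common among liver genes. DBA/2J and BALB/cJ differed from each other by 0.016 ± 0.065 (limma adjusted p = 0.868, 42.1% of genes called).

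The same order was seen in soleus muscle. On RC the lowest, median and highest Glo1 levels were 5.63, 5.83 and 6.76 for C57Bl/6J, 6.63, 6.79 and 7.08 for DBA/2J, and 6.72, 6.79 and 7.09 for BALB/cJ. The groups overlapped because of the C57Bl/6J library 1RC226 (6.76). Library 1RC210 (6.63) lay at the lowest DBA/2J value and below all BALB/cJ animals, and both libraries stood apart. The difference from C57Bl/6J was 0.86 ± 0.074 in DBA/2J (1.82-fold, limma adjusted p = 5.04e-15, 37% of genes called) and 0.90 ± 0.074 in BALB/cJ (1.86-fold, limma adjusted p = 1.03e-15, 44.5% called). Markers of hepatocytes were present in soleus libraries, with all 6 in the table and a summed level on RC of 1.09 to 7293 CPM in C57Bl/6J, 3.24 to 5284 in DBA/2J and 0.834 to 180 in BALB/cJ. Without the 2 libraries that stood apart the Glo1 differences were 1.00 and 1.04. With the hepatocyte marker level as a covariate and without library 1RC210 they were 0.92 and 0.99.

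On HFD neither strain overlapped with C57Bl/6J in muscle. The levels ran from 5.72 to 6.10 in C57Bl/6J, from 6.56 to 6.89 in DBA/2J and from 6.64 to 7.10 in BALB/cJ, with medians of 5.89, 6.81 and 6.79. Of all tested muscle genes, 5.22% and 5.46% had groups that did not overlap for these pairs. The differences were 0.88 ± 0.074 and 0.91 ± 0.074, in tests that called 34.5% and 34.7% of genes.

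In adipose tissue on RC the lowest, median and highest Glo1 levels were 4.69, 4.94 and 5.32 for C57Bl/6J, 5.53, 6.53 and 6.79 for DBA/2J, and 5.86, 6.12 and 6.88 for BALB/cJ. No animal of the other strains overlapped with C57Bl/6J, which was so for 2.22% of the 16541 adipose genes for DBA/2J and 1.91% for BALB/cJ. The differences were 1.36 ± 0.14 (2.57-fold, limma adjusted p = 2.48e-11, 41.7% called) and 1.28 ± 0.14 (2.43-fold, limma adjusted p = 2.12e-10, 11.2% called). On HFD 11 of 12 animals of each strain exceeded all C57Bl/6J animals (differences 1.22 and 1.14, 10.3% and 16.3% called, the latter 1.12 without the islet-gene libraries). Within each of the 6 combinations of diet and day, mean Glo1 was above that of C57Bl/6J in both strains in all 3 tissues, with mean differences from 0.67 to 1.73.

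**Figure D1:**
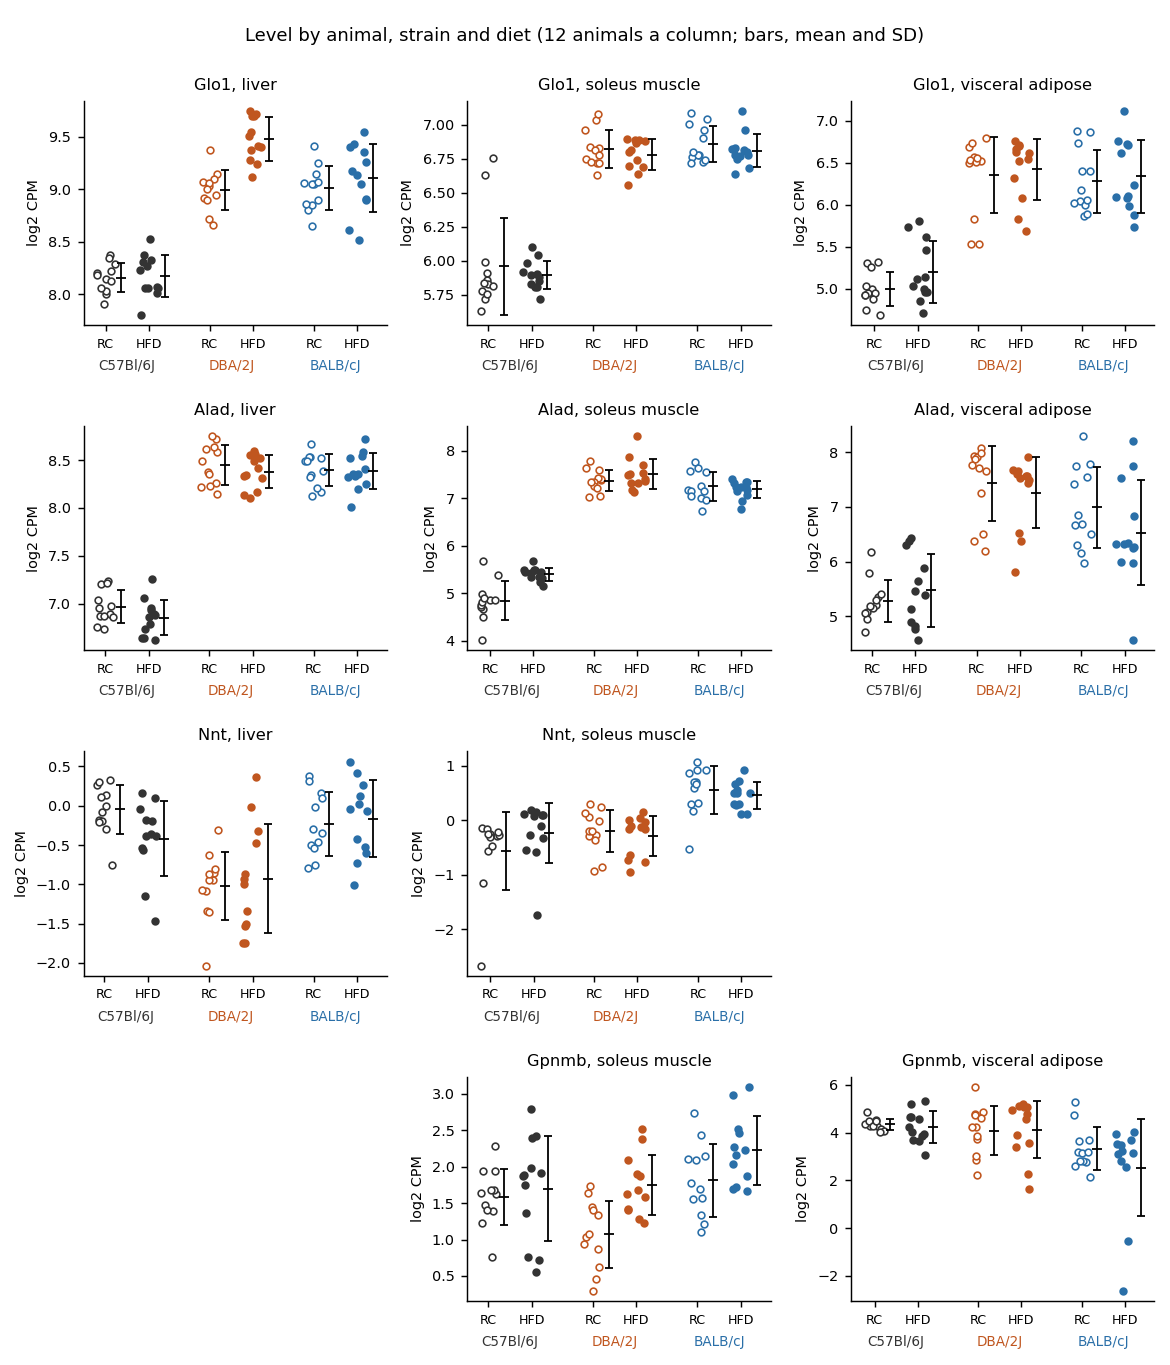
Levels (log2 CPM, vertical axis) of each member in each tissue, 1 point for each of the 72 animals, by strain and diet (open symbols RC, filled symbols HFD), with mean ± SD of 12 animals. All liver Alad points of C57Bl/6J sit below those of the other strains (7.26 at most, 8.01 at least), and the Nnt and Gpnmb points of the strains overlap in each tissue drawn.

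**Figure D2:**
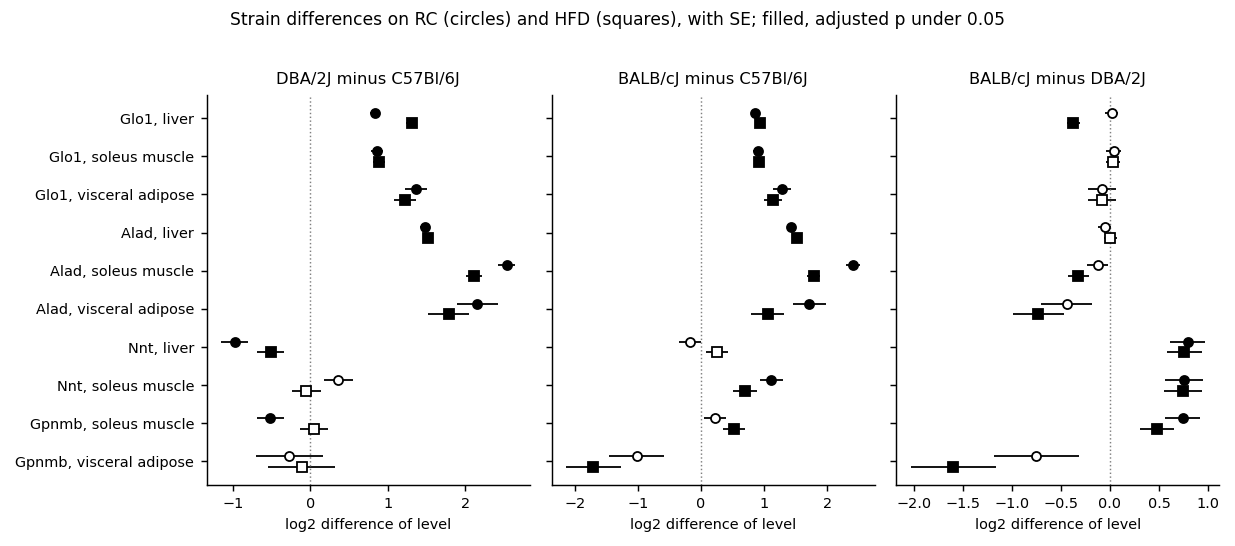
Log2 difference of each pair of strains for each member and tissue on RC (circles) and HFD (squares) with its SE. Filled symbols have an adjusted p under 0.05. For liver, Alad differs by 1.48 and Glo1 by 0.84 between DBA/2J and C57Bl/6J on RC.

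The genes beside Glo1 were examined with it. Btbd9, whose body ends 8.448 kb from that of Glo1 and which lies within the known duplication, was higher in DBA/2J and BALB/cJ in every tissue on RC. Its differences were 0.67 and 0.59 in liver, 0.34 and 0.41 in muscle, and 0.43 and 0.48 in adipose tissue, all with limma adjusted p of 6.09e-04 or below. Dnah8, an axonemal dynein gene that overlaps Glo1, had a low level in liver (mean -0.18) and was higher by 1.44 ± 0.25 in DBA/2J and 1.36 ± 0.25 in BALB/cJ. In adipose tissue on RC its level was higher and varied widely, and the DBA/2J mean lay below that of C57Bl/6J. The mean was 3.07 (SD 1.985) for DBA/2J, 3.79 (SD 1.61) for C57Bl/6J and 5.36 (SD 2.41) for BALB/cJ. The B and T cell markers, described with the adipose results, differed between these libraries too. Their summed level had a median of 11.5 CPM for DBA/2J and 1332 CPM for C57Bl/6J. Their part in the Dnah8 difference was not tested on its own. Of the exonic bases of Glo1, 5.97% lie in other gene records, and how reads there were assigned is not given in the sources used here. Glp1r was not analysed here.

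Genes farther out varied by tissue. Zfand3, a zinc finger gene 374.1 kb away, was higher by 0.14 and 0.13 in liver and by 0.69 in DBA/2J adipose tissue, and differed by -0.043 and 0.035 in muscle, where it was not called. Abcg1, a sterol exporter 430.8 kb away on the other side, fell by 0.99 in DBA/2J muscle and by 0.52 in BALB/cJ muscle. Of the 5 tested liver neighbours within 500 kb, 3 were higher and none lower in DBA/2J than C57Bl/6J on RC (48.1% of all liver genes called). For BALB/cJ 3 were higher and 1 lower (46.8% called), with a largest difference of 5.15 in size. In DBA/2J muscle 1 of 3 was higher and 1 lower (37% called), and in DBA/2J adipose tissue 2 of 5 were higher and 1 lower (41.7% called). In BALB/cJ adipose tissue 1 of 5 was higher and none lower (11.2% called). With the B and T cell marker level as a covariate and without the islet-gene libraries, 3 were higher and 1 lower in DBA/2J adipose tissue. The median there went from -0.72 to 0.30. For BALB/cJ the counts were then 4 and 1.

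Alad was also higher in DBA/2J and BALB/cJ than in C57Bl/6J in every tissue and on both diets. In liver on RC the lowest, median and highest levels were 6.74, 6.93 and 7.24 for C57Bl/6J, 8.15, 8.44 and 8.75 for DBA/2J, and 8.12, 8.44 and 8.67 for BALB/cJ. All DBA/2J and all BALB/cJ animals lay above all C57Bl/6J animals on both diets. The log2 difference was 1.48 ± 0.066 in DBA/2J (2.79-fold, limma adjusted p = 4.94e-28) and 1.43 ± 0.066 in BALB/cJ (2.69-fold, limma adjusted p = 2.63e-27). On HFD it was 1.52 and 1.53, where groups of 5.69% and 4.89% of liver genes did not overlap and 42.7% and 44.2% were called.

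In muscle on RC the levels were 4.01, 4.84 and 5.68 for C57Bl/6J, 7.04, 7.37 and 7.79 for DBA/2J, and 6.74, 7.17 and 7.76 for BALB/cJ (lowest, median and highest). The groups again lay apart, as they did for 5.11% of muscle genes for DBA/2J and 4.99% for BALB/cJ. The difference was 2.53 ± 0.11 in DBA/2J, a 5.78-fold higher level (limma adjusted p = 8.65e-29), and 2.41 ± 0.11 in BALB/cJ, 5.31-fold (limma adjusted p = 9.96e-28). On HFD it was 2.11 and 1.79, and BALB/cJ was lower than DBA/2J by -0.32 ± 0.11 (limma adjusted p = 0.0135, 38.1% called). Without the libraries that stood apart the RC differences were 2.52 and 2.40.

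In adipose tissue the spread within strains was wider. On RC the levels were 4.71, 5.20 and 6.18 for C57Bl/6J, 6.20, 7.73 and 8.09 for DBA/2J, and 5.98, 6.76 and 8.30 for BALB/cJ. DBA/2J did not overlap with C57Bl/6J, and 10 of 12 BALB/cJ animals exceeded all C57Bl/6J animals. The differences were 2.15 ± 0.26 (4.45-fold, limma adjusted p = 2.22e-09) and 1.71 ± 0.26 (3.28-fold, limma adjusted p = 1.04e-06). On HFD they were 1.79 and 1.06 (the latter 1.28 without the islet-gene libraries), and BALB/cJ was lower than DBA/2J by -0.73 ± 0.26 (limma adjusted p = 0.0364, 22.6% called). On HFD 10 of 12 DBA/2J animals and 4 of 12 BALB/cJ animals exceeded all C57Bl/6J animals. Within the 6 combinations of diet and day, the mean differences from C57Bl/6J ran from 1.23 to 1.64 in liver, from 1.54 to 2.69 in muscle and from 0.33 to 2.40 in adipose tissue. In adipose tissue the difference passed the test in 5 of the 6 combinations for DBA/2J and in 2 for BALB/cJ. The HFD difference between BALB/cJ and DBA/2J in adipose tissue was -0.51 (limma adjusted p = 0.144) without the 2 islet-gene libraries, and -0.03 (limma adjusted p = 0.901) with the level of B and T cell markers, which are described with the adipose results, as a further covariate.

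Hdhd3, which encodes a haloacid dehalogenase-like protein, lies 5.702 kb from Alad and was higher in both strains in every tissue. Its RC differences were 1.40 and 1.21 in liver, 2.26 and 1.55 in muscle, and 2.74 and 1.96 in adipose tissue (DBA/2J, then BALB/cJ, with limma adjusted p of 5.55e-06 or below). Pole3, a subunit of DNA polymerase epsilon 2.731 kb away on the other side, did not do so. It was lower in liver by -0.22 and -0.34, differed by 0.0040 and 0.024 in muscle without passing the test, and was higher in DBA/2J adipose tissue by 0.55. Prpf4, a splicing factor 82.18 kb away, was lower in DBA/2J liver by -0.27 and higher in DBA/2J muscle by 0.23.

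**Figure D3:**
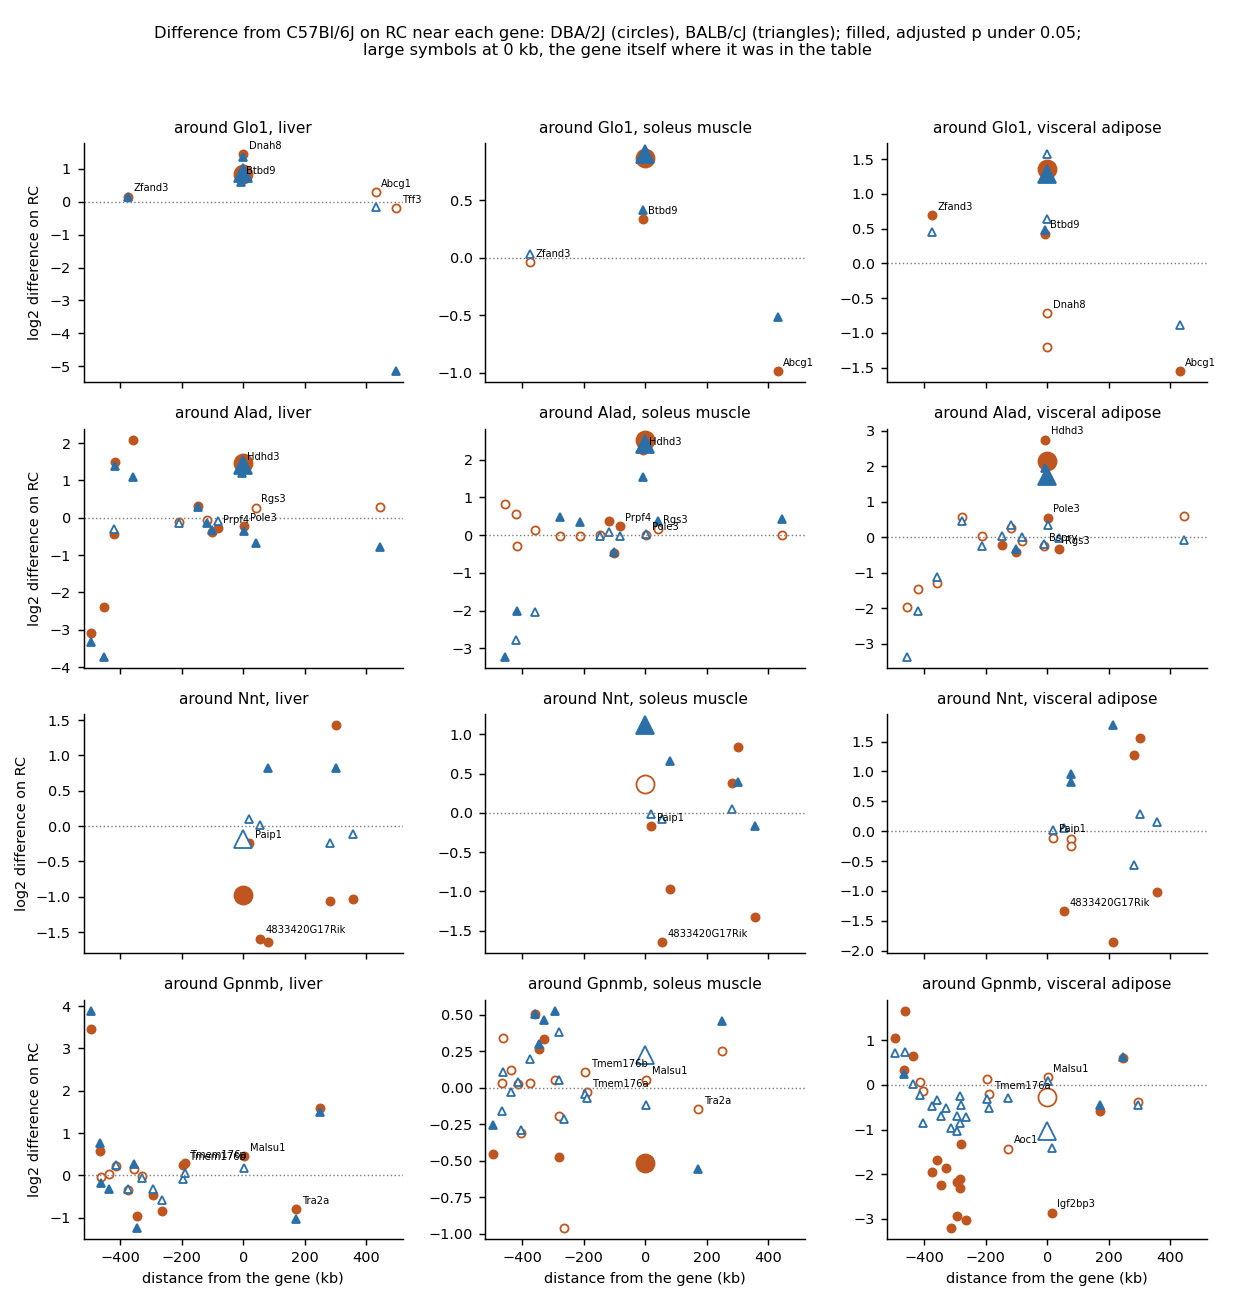
Log2 difference from C57Bl/6J on RC (vertical axis) of tested genes within 500 kb of each member against their distance in kb, with circles for DBA/2J and triangles for BALB/cJ. Large symbols at 0 kb are the member itself. Btbd9 at 8.448 kb from Glo1 and Hdhd3 at 5.702 kb from Alad lie above 0 in all 3 tissues.

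Nnt had few reads, from 6 to 38 in a liver library and from 2 to 50 in a muscle library, and its levels did not separate C57Bl/6J from the other strains. In liver on RC the lowest, median and highest levels were -0.75, -0.042 and 0.33 for C57Bl/6J, -2.03, -0.94 and -0.31 for DBA/2J, and -0.79, -0.32 and 0.38 for BALB/cJ. All strains overlapped, and 10 of 12 DBA/2J animals lay below every C57Bl/6J animal. DBA/2J was lower than C57Bl/6J by -0.97 ± 0.17 (1.96-fold lower, limma adjusted p = 4.99e-06), whereas BALB/cJ differed by -0.18 ± 0.17 (limma adjusted p = 0.406). On HFD DBA/2J was lower by -0.51 ± 0.17 (limma adjusted p = 0.0155), and with the range of animal numbers as a covariate this was -0.52 (limma adjusted p = 0.0512). BALB/cJ was higher than DBA/2J on both diets, by 0.79 and 0.76 (limma adjusted p = 1.78e-04 and 4.32e-04, 32.7% called on HFD).

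In muscle BALB/cJ stood highest. The RC levels were -2.67, -0.29 and -0.14 for C57Bl/6J, -0.93, -0.20 and 0.30 for DBA/2J, and -0.54, 0.67 and 1.07 for BALB/cJ. The lowest value came from library 1RC210, with 2 reads, and 11 of 12 BALB/cJ animals exceeded all C57Bl/6J animals. BALB/cJ was higher than C57Bl/6J by 1.12 ± 0.19 (2.17-fold, limma adjusted p = 2.06e-06), or 0.85 without the 2 libraries that stood apart, and higher than DBA/2J by 0.75 ± 0.19 (limma adjusted p = 0.00104, 40.4% called). On HFD it was higher than C57Bl/6J by 0.69 ± 0.19 (limma adjusted p = 0.00288). DBA/2J differed from C57Bl/6J by 0.36 ± 0.19 on RC (limma adjusted p = 0.130), which was 0.10 without the libraries that stood apart, and by -0.052 on HFD.

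The genes nearest to Nnt, all on one side of it, showed strain differences of their own. Paip1, a partner of the poly(A)-binding protein 19.60 kb away, was lower in DBA/2J by -0.24 in liver and -0.17 in muscle. The gene 4833420G17Rik, 53.77 kb away, was lower in DBA/2J by -1.59 in liver, by -1.65 in muscle and by -1.34 in adipose tissue, and differed in BALB/cJ by 0.012, -0.077 and 0.057, none of them called. Of the 6 tested liver neighbours, 5 were lower and 1 higher in DBA/2J than C57Bl/6J on RC, where 48.1% of all liver genes were called. In muscle 4 of 6 were lower and 2 higher (37% of genes called), while Nnt differed there by 0.36 and was not called. Any link between the neighbours and the Nnt values was not tested.

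For Gpnmb, the known variant of DBA/2J is a premature stop within the coding sequence. The reference reads an arginine codon there, codon 150 of the 574 of transcript Gpnmb-201 in exon 4 (chr6:49045385-49045387, GRCm38, plus strand, transcript from GENCODE M21). It is shown because it is the place where the strains are known to differ; capitals mark the codon, between 10 reference codons on either side.
Gpnmb-201 reference: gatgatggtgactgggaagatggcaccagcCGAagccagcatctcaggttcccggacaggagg
The deposited values hold no reads over this codon, so the variant itself was not examined in these animals.

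Gpnmb transcript levels did not separate DBA/2J from the other strains. In muscle on RC the lowest, median and highest levels were 0.76, 1.63 and 2.29 for C57Bl/6J, 0.29, 1.06 and 1.74 for DBA/2J, and 1.11, 1.73 and 2.74 for BALB/cJ. All strains overlapped, with 3 of 12 DBA/2J animals below all C57Bl/6J animals. DBA/2J was lower than C57Bl/6J by -0.51 ± 0.18 (limma adjusted p = 0.0164) and BALB/cJ was higher than DBA/2J by 0.74 ± 0.18 (limma adjusted p = 5.26e-04). The summed level of the macrophage markers, 7 of 8 of which were in the table, had a median of 62.6 CPM in C57Bl/6J (range 29.8 to 202.1), 54.5 in DBA/2J (29.2 to 92.0) and 99.6 in BALB/cJ (82.3 to 157.1), and its part in these differences was not tested. The difference between DBA/2J and C57Bl/6J was -0.43 (limma adjusted p = 0.0953) with the range of animal numbers as a covariate, and -0.26 (limma adjusted p = 0.522) among libraries with low hepatocyte markers. On HFD DBA/2J and C57Bl/6J differed by 0.049 ± 0.18 (limma adjusted p = 0.859), and BALB/cJ was higher than both, by 0.53 and 0.48 (limma adjusted p = 0.0150 and 0.0260).

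In adipose tissue Gpnmb varied widely between animals of a strain. On RC the levels were 4.04, 4.32 and 4.85 for C57Bl/6J, 2.23, 4.23 and 5.92 for DBA/2J, and 2.16, 3.15 and 5.29 for BALB/cJ. The DBA/2J range enclosed that of C57Bl/6J, and 10 of 12 BALB/cJ animals lay below every C57Bl/6J animal. The difference was -0.27 ± 0.43 in DBA/2J (limma adjusted p = 0.621) and -1.02 ± 0.43 in BALB/cJ (limma adjusted p = 0.126). With the 2 islet-gene libraries left out, which are on HFD and enter through the shared estimate of the spread, the BALB/cJ value had a limma adjusted p of 0.00389.

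On HFD the BALB/cJ levels reached down to -2.63 and -0.54 in the islet-gene libraries, and their median was 3.20, against 4.13 in C57Bl/6J and 4.68 in DBA/2J. BALB/cJ was lower than C57Bl/6J by -1.71 ± 0.43 (limma adjusted p = 0.00329) and lower than DBA/2J by -1.59 ± 0.43 (limma adjusted p = 0.00503). Without the 2 libraries these were -0.87 (limma adjusted p = 0.0278) and -0.76 (limma adjusted p = 0.0402). The call against C57Bl/6J was lost among libraries low in B and T cell markers (-0.18, limma adjusted p = 0.859), and that against DBA/2J both there (-0.69, limma adjusted p = 0.251) and with these markers as a covariate (-0.45, limma adjusted p = 0.190). Around Gpnmb, 18 of 25 adipose neighbours differed between DBA/2J and C57Bl/6J on RC, 13 of them lower, where 41.7% of all genes were called, and 3 of 25 differed in BALB/cJ. All 7 B and T cell markers were lower in the first of these contrasts (median -4.16), and with their level as a covariate 6 neighbours were higher and 2 lower in DBA/2J. Malsu1, a mitochondrial ribosome assembly factor 2.866 kb away, was higher in DBA/2J liver by 0.45 and was not called in muscle or adipose tissue. Igf2bp3, an RNA-binding protein gene 14.29 kb away, was lower in DBA/2J adipose tissue by -2.86.

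The diets were compared next, since the study fed each strain both. Glo1 rose on HFD in DBA/2J liver. There the lowest, median and highest levels were 8.66, 9.02 and 9.38 on RC and 9.12, 9.46 and 9.75 on HFD, and on day 33 the 4 RC animals stood at 8.66, 9.03, 8.92 and 8.72 and the 4 HFD animals at 9.70, 9.75, 9.72 and 9.55. The day 33 groups did not overlap, which held for 19% of liver genes. The rise was 0.49 ± 0.065 over all days (1.40-fold, limma adjusted p = 7.74e-08, 21.6% called) and 0.85 ± 0.11 on day 33 (1.80-fold, limma adjusted p = 1.55e-07, 15.9% called).

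In the other strains the test was not passed. The diet difference was 0.016 in C57Bl/6J (limma adjusted p = 0.970, 2.31% called) and 0.097 in BALB/cJ (limma adjusted p = 0.335, 14.8% called). Under quantile normalization the BALB/cJ value was 0.22 and passed (limma adjusted p = 0.0172). The diet effect differed between strains by an F test (limma adjusted p = 4.36e-04, 15.7% called), and was larger in DBA/2J than C57Bl/6J by 0.47 ± 0.092 (limma adjusted p = 3.44e-04, 10.3% called) and smaller in BALB/cJ than DBA/2J by -0.39 ± 0.092 (limma adjusted p = 0.00508, 8.61% called). On HFD BALB/cJ was lower than DBA/2J, by -0.37 ± 0.065 (limma adjusted p = 5.54e-06).

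Over all strains Glo1 in liver rose by 0.20 ± 0.038 (limma adjusted p = 6.27e-05, 21.2% called). Animal numbers fell into 3 ranges that coincide in part with the days and with the strains, and within them this difference was 0.34, 0.00 and 0.09. In DBA/2J it was 0.57 in the lowest range, which holds days 5 and 33 of that strain, and 0.20 in the middle range. On day 5 every DBA/2J animal and no C57Bl/6J animal had a number in the lowest range, so strain and range cannot be told apart there. What the number ranges stand for is not given in the labels. On HFD Glo1 differed between days (F test, limma adjusted p = 1.80e-04, 18.9% called) and stood higher on day 33 than on day 5 by 0.36 ± 0.065, and by 0.56 ± 0.11 in BALB/cJ (limma adjusted p = 3.04e-04 and 4.69e-04, 5.48% and 15.3% called). The course over days on HFD differed between strains (F test, limma adjusted p = 0.0342, 13.7% called).

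In muscle Alad rose on HFD in C57Bl/6J, from 4.01, 4.84 and 5.68 (lowest, median and highest) on RC to 5.15, 5.43 and 5.67 on HFD. The groups overlapped through the RC animals 1RC226 (5.68) and 1RC235 (5.39). The rise was 0.56 ± 0.11 (1.47-fold, limma adjusted p = 3.32e-04, 5.75% called), and 0.55 without the libraries that stood apart. It was 0.47 (limma adjusted p = 0.00136) with the hepatocyte marker level as a covariate, and 0.66 (limma adjusted p = 0.09999) among libraries with low hepatocyte markers, both without library 1RC210. In DBA/2J the difference was 0.14 and in BALB/cJ -0.065, neither called (11.5% of genes called in BALB/cJ). The effect differed between strains (F test, limma adjusted p = 0.0124, 9.83% called), by -0.62 ± 0.15 for BALB/cJ against C57Bl/6J (limma adjusted p = 0.00846, 6.52% called) and by -0.42 ± 0.15 for DBA/2J (limma adjusted p = 0.103).

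Gpnmb in muscle was higher on HFD over all strains by 0.40 ± 0.10 (limma adjusted p = 0.00368, 17.4% called). In the lowest, middle and highest range of animal numbers this difference was 0.63, 0.33 and 0.02, with the test passed in the lowest alone. Markers of other cells were also higher on HFD in these muscles, with 2 of 6 adipocyte markers (median 0.51) and 2 of 7 B and T cell markers (median 0.91) called and none lower, and their part in the Gpnmb difference was not tested. Its medians on RC and HFD were 1.06 and 1.66 in DBA/2J, 1.73 and 2.20 in BALB/cJ, and 1.63 and 1.88 in C57Bl/6J. The difference passed the test in DBA/2J (0.68 ± 0.18, limma adjusted p = 0.00811, 8.73% called), where it was 0.52 (limma adjusted p = 0.235) among libraries with low hepatocyte markers and 0.48 (limma adjusted p = 0.603) in the middle number range, and did not in BALB/cJ (0.41, limma adjusted p = 0.108) or C57Bl/6J (0.11, limma adjusted p = 0.785). The strains were not shown to differ in it (F test, limma adjusted p = 0.269). In C57Bl/6J on HFD it stood at 0.73, 1.99, 0.77 and 0.55 on day 5 and at 2.42, 1.87, 1.88 and 2.79 on day 33. The 2 days overlapped only through the day 5 animal 1HF227. The difference was 1.23 ± 0.30 (limma adjusted p = 0.0336, 0.792% called), and leaving out any of 5 animals of these days ended the call, with values down to 1.05. The same difference was 0.23 in DBA/2J and -0.11 in BALB/cJ, neither called. The F tests between days on HFD (limma adjusted p = 0.133) and of strain by day (limma adjusted p = 0.165) were not passed.

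**Figure D4:**
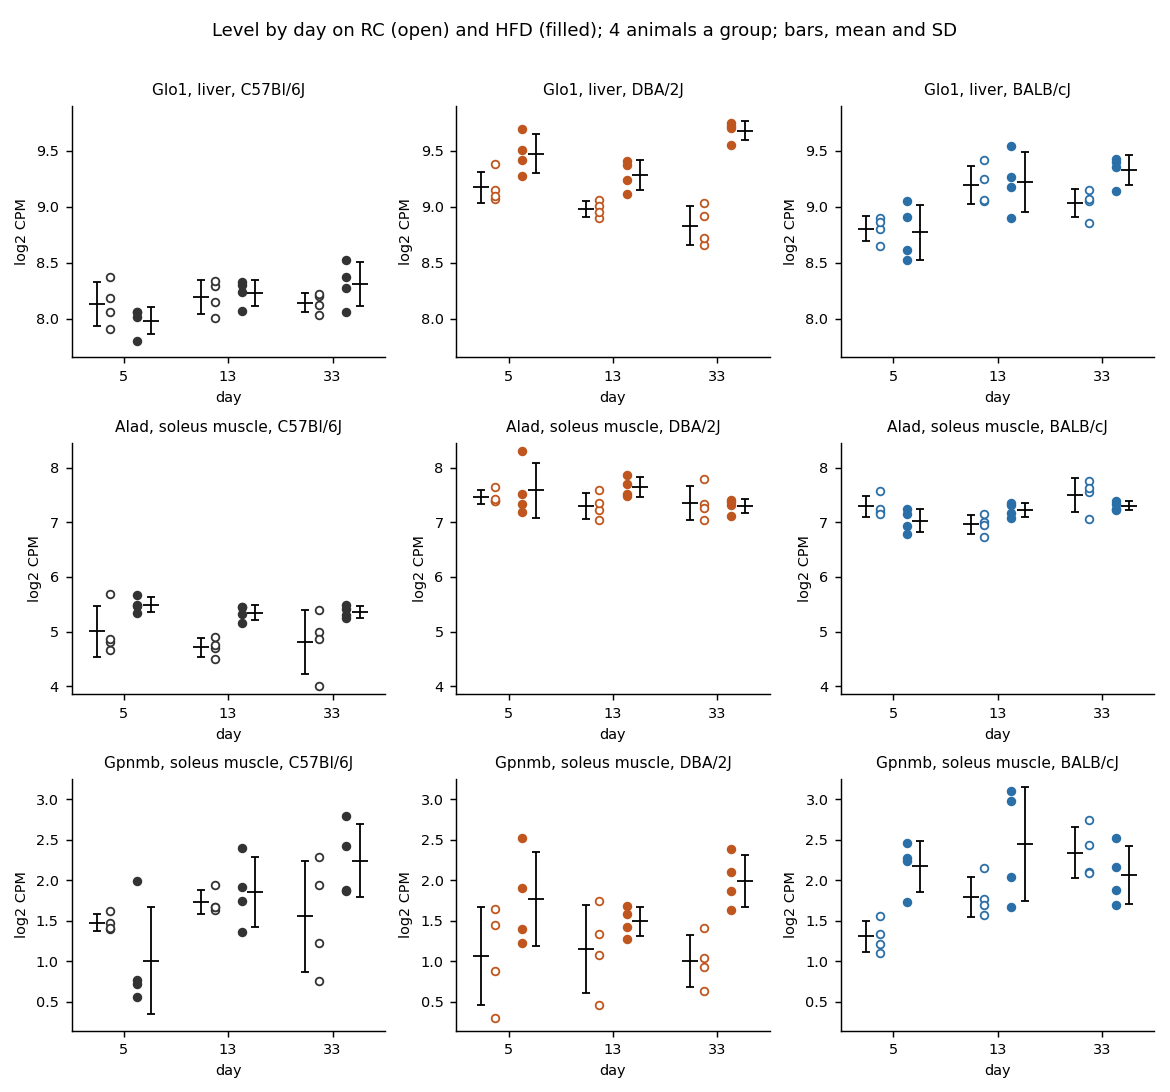
Levels (log2 CPM, vertical axis) of Glo1 in liver, Alad in muscle and Gpnmb in muscle by strain and day, with open symbols for RC, filled symbols for HFD and 4 animals a group. On day 33 the DBA/2J liver Glo1 points on HFD, 9.55 to 9.75, lie above those on RC, 8.66 to 9.03.

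Alad (-0.066) and Nnt (-0.071) did not pass the test of the overall diet effect in liver, nor did Glo1 (-0.052) and Nnt (0.045) in muscle. Nnt in liver differed between days on HFD (F test, limma adjusted p = 0.00365) and was lower on day 13 than on day 5 by -0.54 ± 0.17 (limma adjusted p = 0.0282, 13.6% called). In adipose tissue no member passed the overall diet test, in which 2.67% of genes were called. The differences were 0.11 for Glo1, -0.15 for Alad and -0.29 for Gpnmb, and 0.10, -0.07 and -0.01 without the islet-gene libraries.

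Adipose calls within a single strain and day rested on few animals. Alad was lower on HFD than on RC in BALB/cJ on day 33, where the RC animals stood at 7.54, 7.79, 6.51 and 7.42 and the HFD animals at 4.57, 6.00, 6.32 and 6.26. The groups did not overlap, as for 17.3% of adipose genes, and the lowest HFD value was the islet-gene library 3HF208. The difference was -1.53 ± 0.45 (limma adjusted p = 0.0299, 10.7% called), and -1.12 (limma adjusted p = 0.0892) without the islet-gene libraries. With B and T cell markers as a further covariate it was -0.40 (limma adjusted p = 0.477). The marker mean was 7.63 to 7.83 in the 3 other HFD libraries and -0.090 to 7.15 in the 4 RC libraries. Gpnmb in DBA/2J on HFD stood at 1.62, 2.28, 3.42 and 3.91 on day 5 and at 5.06, 5.21, 4.94 and 5.08 on day 33. The groups did not overlap, as for 11.9% of adipose genes. The difference of 2.26 ± 0.75 lay at the threshold (limma adjusted p = 0.04995, 7.55% called) and was 2.20 (limma adjusted p = 0.0539) with the animal number as a block. The F test between days on HFD over all strains was not passed (limma adjusted p = 0.390).

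The adipose levels of Glo1 and Alad, and of Gpnmb in DBA/2J and BALB/cJ, moved with markers of B and T cells, cells of lymph nodes that can lie in visceral fat. The summed level of the 7 markers, in CPM, had a lowest, median and highest value on RC of 13.1, 1332 and 1777 for C57Bl/6J, 6.78, 11.5 and 1773 for DBA/2J, and 5.13, 1050 and 1595 for BALB/cJ, and no marker was missing from the table. Within a strain, libraries with a marker mean of 4 or over had lower Glo1 and Alad. In DBA/2J on RC the Glo1 median was 5.54 in the 3 such libraries and 6.56 in the other 9, the Alad median 6.37 and 7.87, and the Gpnmb median 2.84 and 4.63. In C57Bl/6J the Gpnmb medians were 4.32 and 4.40 on RC, and 4.41 and 3.68 on HFD, in the reverse order. The macrophage marker sum had RC medians of 2029 CPM in C57Bl/6J (range 693.1 to 2316), 768 in DBA/2J (611.6 to 1928) and 1616 in BALB/cJ (544.7 to 2248), and its part in the Gpnmb values was not tested.

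With the marker level as a covariate and without the islet-gene libraries, the RC differences from C57Bl/6J of DBA/2J and BALB/cJ were 0.95 and 1.14 for Glo1 and 1.44 and 1.46 for Alad. They were 1.31 and 1.44, and 1.85 and 1.82, among the 30 libraries with a marker mean under 4. Gpnmb then differed by -0.74 (limma adjusted p = 0.0238) and -1.19 (limma adjusted p = 4.20e-05) under the covariate, and by 0.18 and -0.41, neither called, among those 30 libraries. The rise of Gpnmb from day 5 to day 33 in DBA/2J on HFD was 1.72 under the covariate (limma adjusted p = 0.0113). On day 5, 3 of these 4 libraries had a marker mean of 4 or over, and on day 33 none had.

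**Figure D5:**
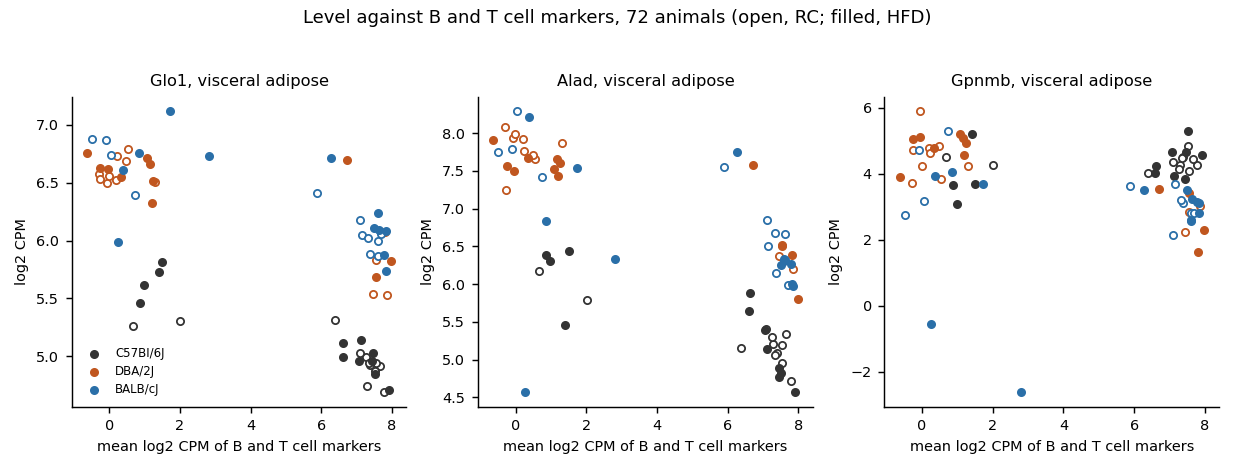
Adipose levels (log2 CPM, vertical axis) of Glo1, Alad and Gpnmb against the mean log2 CPM of 7 B and T cell markers, 1 point for each of 72 animals, by strain. Within DBA/2J on RC, points at a marker mean of 4 or over have a Glo1 median of 5.54 against 6.56 for the others.

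The other genes of each member's pathway were read from fixed lists, which include the member. Among all tested genes, on RC, 23.9% were higher and 24.2% lower in DBA/2J liver (against C57Bl/6J), 17.6% and 19.4% in muscle, and 21.2% and 20.5% in adipose tissue. For BALB/cJ the shares were 22.9% and 23.9%, 21.2% and 23.3%, and 6.42% and 4.82%. On HFD against RC, 10.9% were higher and 10.3% lower in liver, 8.98% and 8.39% in muscle, and 1.63% and 1.03% in adipose tissue. Of 12 tested genes that form or remove methylglyoxal, 4 were higher and 1 lower in DBA/2J than C57Bl/6J in liver on RC, and 5 and 1 in BALB/cJ. The list's median was 0.15 and 0.054, beside -0.012 and -0.014 for all tested genes. Ldhd, a mitochondrial D-lactate dehydrogenase, was higher in liver by 0.42 and 0.45. In adipose tissue 7 of 12 were higher and none lower in either strain, with medians of 0.47 and 0.43, beside 0.051 and 0.0028 for all genes, among them the aldo-keto reductase Akr1b8 (1.24 and 1.23). In the same contrasts the 7 B and T cell markers had medians of -4.16 (all lower) and -1.73 (none called), and 6 of 8 islet markers were higher in BALB/cJ. With the B and T cell level as a covariate and without the islet-gene libraries, 4 genes of the list were higher and 3 lower for DBA/2J, with 7 and 1 for BALB/cJ. In muscle 2 were higher and 1 lower in DBA/2J, and 4 higher in BALB/cJ, with medians of 0.025 and 0.10. Without the libraries that stood apart 4 were higher and 1 lower for DBA/2J, with 5 higher for BALB/cJ.

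Haem synthesis and breakdown held 14 tested genes. In liver on RC 4 were higher and 3 lower in DBA/2J, and 4 higher and 5 lower in BALB/cJ, with medians of -0.053 and 0.057. Alas2, the erythroid form of the enzyme that starts haem synthesis, was higher by 0.83 and 1.01, and Blvrb, a biliverdin reductase, was lower by -0.35 and -0.90. The summed level of the erythroid markers, 5 of 7 of which were in the table, in these livers had a median of 261.9 CPM in C57Bl/6J (range 190.3 to 402.3), 458.4 in DBA/2J (329.1 to 1053) and 470.3 in BALB/cJ (331.8 to 1328), and its part in the haem genes was not tested. In muscle 6 were higher and 2 lower in DBA/2J, and for BALB/cJ these counts were 5 and 2, with medians of 0.092 and 0.094. The counts were 7 and 2, and 4 and 1, without the libraries that stood apart. In adipose tissue 6 were higher in DBA/2J and 3 in BALB/cJ, with none lower and medians of 0.36 and 0.18, and 3 and 4 were higher with the B and T cell covariate.

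Of the mitochondrial genes of NADPH supply and peroxide removal, 1 of 15 was higher and 3 lower in DBA/2J liver, and 3 and 2 in BALB/cJ liver. In muscle 6 of 17 were higher in DBA/2J and 12 of 17 in BALB/cJ, with none lower and medians of 0.17 and 0.20, beside -0.0050 and -0.018 for all genes. Slow fibre markers were higher in DBA/2J in this contrast (5 of 6, median 1.01; none called in BALB/cJ) and fast fibre markers lower in either strain (3 of 6, medians -0.44 and -0.34), and their part was not tested. Without the libraries that stood apart, 7 and 11 genes of the list were higher. Me3, a mitochondrial malic enzyme that makes NADPH, was higher by 0.55 and 0.32, and Prdx5, a peroxiredoxin, by 0.44 in BALB/cJ. In adipose tissue 9 of 16 were higher in DBA/2J and none was called in BALB/cJ, and with the B and T cell level as a covariate 1 was higher in DBA/2J and 1 lower in BALB/cJ.

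For the lysosomal and lipid-laden macrophage genes listed with Gpnmb, muscle on RC held 1 higher and 4 lower of 15 in DBA/2J and 7 higher and 3 lower in BALB/cJ, with medians of -0.0024 and 0.23. Without the libraries that stood apart the counts became 3 and 5 for DBA/2J, with 8 and 4 for BALB/cJ. The higher ones in BALB/cJ included Lgals3 (1.07), Trem2 (1.06) and Cd68 (0.85), macrophage genes, while Spp1, osteopontin, was lower in both strains (-0.75 and -0.81). In DBA/2J adipose tissue 6 of 18 were higher and 1 lower, led by the metalloelastase Mmp12 (3.66), with a median of 0.59, and 4 were higher and 1 lower with the B and T cell covariate. Over the diets, 2 of 15 muscle genes were higher on HFD, Gpnmb itself and the fatty acid binding protein Fabp5 (0.26), and none was lower. This count was 4 without the libraries that stood apart. In liver, where Gpnmb had no row, 6 of 13 genes of this list were lower on HFD and none higher. Of 11 pigment cell genes and transcription factors of the MiT family, which drive Gpnmb in pigment cells, 4 to 6 were tested in a tissue. Dct, a melanin synthesis enzyme, differed in DBA/2J by 2.56 in liver and by -1.32 in muscle, and Tfe3 was lower in liver by -0.37 in DBA/2J and -0.47 in BALB/cJ. Over the diets, the methylglyoxal list had 1 gene higher and 3 lower on HFD in liver and 1 lower in muscle, the haem list 2 and 3 in liver and 1 and 3 in muscle (where 3 of 5 and 4 of 5 erythroid markers were lower, with medians of -0.45 and -0.39, their part not tested), and the mitochondrial list 2 and 3 in each. In adipose tissue no gene of the first 2 lists was called, and 1 of the mitochondrial list was lower, the glutathione peroxidase Gpx4 (-0.55).

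The genes whose levels tracked each member best over the 72 animals of a tissue are given as a description, since strain, diet and library depth are shared by all points. Glo1 in liver was most like Tymp (Pearson r = 0.89), Alad in liver most like Pebp1 (0.97) and Nnt in liver most like Gclm (0.75). In muscle the closest were Eif3j2 for Glo1 (0.93), Myl12b for Alad (0.96), Hdhd5 for Nnt (0.72) and Rab11fip5 for Gpnmb (0.62). In adipose tissue they were Hddc3 for Glo1 (0.95), Hdhd3, the neighbour, for Alad (0.94) and Rab7b for Gpnmb (0.84). With group means taken out, the closest were B3gat3 for Glo1 in liver (0.72), Ephx2 for Alad in muscle (0.84) and Lipa, the lysosomal acid lipase, for Gpnmb in adipose tissue (0.87).

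Whether an animal high for a member in one tissue was high in another was asked with deviations from group means over 72 animals. Of 8 relations none passed a permutation test within groups, with the lowest adjusted p at 0.407. Pearson r ran from -0.22 to 0.19 and Spearman rho from -0.22 to 0.17. The largest in size, Alad in muscle and adipose tissue, had r = -0.22 (permutation p = 0.102, adjusted p = 0.407) and rho = -0.22 (permutation p = 0.0855), and r was -0.25 without the 2 animals farthest from the median in muscle and -0.34 over the 68 animals with no library that stood apart.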

How the data were processed

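The authors deposited log2 CPM for each gene and animal in a table a tissue. STAR 2.5.3a, edgeR and GRCm38 are named per the submitters' processing notes, and the read counter and annotation are not given in the sources used here. RNA was extracted with an RNeasy kit, made into stranded mRNA libraries and sequenced as single reads per the labels' protocols. Values under 2000 reads came out as whole reads (tolerance 0.05 reads). Symbols came from GENCODE M21. Of the liver libraries, 8 from 4 animals were not analysed here.

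Genes at a log2 CPM of 0 or over in at least 4 animals were tested (12611 for liver, 13637 for muscle, 16541 for adipose) with limma 3.58.1 in R 4.3.3. Each tissue had 1 fit with 18 group means, 54 residual degrees of freedom and a variance trend. Two-sided p-values were adjusted by Benjamini-Hochberg over the tested genes of each tissue and contrast (threshold 0.05), and errors are standard errors. The code was tested on simulated data. Named besides the members were the 2 nearest tested genes on each side within 500 kb, Btbd9, Dnah8 and Hdhd3, the genes of most like pattern (Pearson r) and called list genes with the largest differences. Not all of these are printed. Deviations of animals with the same number in different groups were weakly related (consensus correlation 0.061 for liver, 0.0071 for muscle and -0.074 for adipose tissue). In liver their median r was 0.039, against -0.0037 for animals of different numbers. Numbers were therefore not used as pairs in the main fit. Alternatives were other filters, scalings, prior counts, no variance trend, the number range as covariate, a replicate block, only the groups compared and each animal left out. Those on marker levels, single number ranges and libraries that stand apart were chosen after seeing the data. The muscle fits on hepatocyte marker levels also left out library 1RC210. The members and lists were chosen with earlier results of these data known.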

Additional observations from a re-analysis of the deposited data

Results flagged for a closer look

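In each of 180 groups of 4 animals (a member in a tissue, strain, diet and day), the highest and lowest animals were compared with the others. In 12 groups an animal lay far from the other 3, where chance gives about 1 in 20. Of these, 4 were libraries whose marker genes stood apart. In muscle these were Nnt in the C57Bl/6J RC day 33 animal 1RC210, at -2.67 (others -0.48 to -0.14), and Glo1 in the C57Bl/6J RC day 5 animal 1RC226, at 6.76 (others 5.78 to 5.84). In adipose tissue they were Gpnmb in the BALB/cJ HFD animals 3HF201 on day 5, at -2.63 (others 3.501 to 3.95), and 3HF208 on day 33, at -0.54 (others 3.10 to 3.24).

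The other flagged animals were spread over genes and groups. Nnt in the muscle of the C57Bl/6J HFD day 33 animal 1HF259 stood at -1.75 (others 0.080 to 0.15). Muscle Glo1 stood at 7.10 in the BALB/cJ HFD day 13 animal 3HF254 (others 6.78 to 6.81) and at 6.56 in the DBA/2J HFD day 5 animal 2HF203 (others 6.86 to 6.89). Alad stood at 7.64 in the muscle of the DBA/2J RC day 5 animal 2RC203 (others 7.39 to 7.42) and at 6.20 in the adipose tissue of the DBA/2J RC day 13 animal 2RC231 (others 7.76 to 7.99). Muscle Gpnmb stood at 1.99 in the C57Bl/6J HFD day 5 animal 1HF227 (others 0.55 to 0.77) and at 1.94 in the C57Bl/6J RC day 13 animal 1RC254 (others 1.63 to 1.68). Adipose Gpnmb stood at 3.84 in the DBA/2J RC day 33 animal 2RC208 (others 4.72 to 4.85).

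Effects that differed between groups by their own test were the diet effect on liver Glo1 between strains (limma adjusted p = 4.36e-04), the liver Glo1 course over days on HFD between strains (limma adjusted p = 0.0342) and the diet effect on muscle Alad between strains (limma adjusted p = 0.0124).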

How the results depend on the processing

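Over 108 results, 7705 of 7776 values with 1 animal left out and 1312 of 1400 values under other alternatives kept their direction and their side of the threshold. The strain differences of Glo1 and Alad from C57Bl/6J in liver and muscle kept both under every alternative run. Nnt has no value under the stricter filter, few reads limit it (2 to 50), and adipose tissue has the widest spread. The cause of the changes below was not tested. The subsets hold fewer animals, and within a number range a strain's mean is over the days it has there. Strains compared within a range can thus differ in day. On HFD in the lowest range, DBA/2J has animals of days 5 and 33, and C57Bl/6J has the day 33 animal 1HF209 alone.

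The animal numbers fall into 3 ranges. Among animals of the middle range, calls were lost for Nnt in liver (BALB/cJ minus DBA/2J 0.80 on RC and 1.45 on HFD, DBA/2J minus C57Bl/6J -1.07 on HFD) and in muscle (BALB/cJ minus C57Bl/6J 0.59 and 0.53, minus DBA/2J 0.09 and 0.56, RC and HFD). Calls were also lost for liver Glo1 (BALB/cJ minus DBA/2J on HFD -0.40, diet 0.00 overall and 0.20 in DBA/2J), muscle Alad (BALB/cJ minus DBA/2J on HFD -0.48, diet 0.39 overall and 0.49 in C57Bl/6J) and muscle Gpnmb (DBA/2J minus C57Bl/6J on RC -0.66, BALB/cJ minus DBA/2J 0.58 on RC and 0.74 on HFD, BALB/cJ minus C57Bl/6J on HFD 0.75, diet 0.33 overall and 0.48 in DBA/2J). In adipose tissue they were lost for Glo1 (BALB/cJ minus C57Bl/6J on RC 0.97, DBA/2J minus C57Bl/6J on HFD 1.25), Alad (BALB/cJ minus C57Bl/6J 1.29 on RC and 1.81 on HFD, minus DBA/2J on HFD -0.42) and Gpnmb (BALB/cJ minus C57Bl/6J -0.79 and minus DBA/2J -1.53, HFD).

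Among those of the lowest range, the lost calls were Nnt on HFD in liver (DBA/2J minus C57Bl/6J -0.18, BALB/cJ minus DBA/2J 0.68) and muscle (BALB/cJ minus C57Bl/6J 0.59, minus DBA/2J 0.85), muscle Alad (BALB/cJ minus DBA/2J on HFD -0.19, diet 0.11 overall and 0.81 in C57Bl/6J), muscle Gpnmb (BALB/cJ minus DBA/2J on HFD 0.05), and on HFD in adipose tissue Glo1 (DBA/2J 0.55 and BALB/cJ 0.42 minus C57Bl/6J), Alad (DBA/2J minus C57Bl/6J 0.68) and Gpnmb (BALB/cJ minus C57Bl/6J -3.16). Direction turned there for muscle Gpnmb (DBA/2J minus C57Bl/6J on RC 0.04, BALB/cJ minus C57Bl/6J on HFD -0.50) and adipose Alad (BALB/cJ minus C57Bl/6J on HFD -0.69). Calls appeared for muscle Nnt (DBA/2J minus C57Bl/6J on RC 1.14), muscle Gpnmb (BALB/cJ minus C57Bl/6J on RC 0.91), and the diet in BALB/cJ adipose tissue (Alad -1.70, Gpnmb -2.83). The C57Bl/6J RC animals of this range are 1RC210, whose muscle library stood apart, and 1RC211. Its BALB/cJ HFD animals are 3HF202, 3HF203 and those of the islet-gene adipose libraries, 3HF201 and 3HF208.

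Among those of the highest range, calls were lost for liver Glo1 (BALB/cJ minus DBA/2J on HFD -0.04, diet overall 0.09), muscle Nnt (BALB/cJ minus C57Bl/6J 0.91 on RC and 0.55 on HFD, minus DBA/2J on HFD 1.11), muscle Gpnmb (BALB/cJ minus DBA/2J on HFD 0.93, diet overall 0.02), adipose Glo1 and Alad (BALB/cJ minus C57Bl/6J on RC 0.95 and 1.04), and BALB/cJ minus DBA/2J on HFD in adipose tissue (Alad -1.03, Gpnmb -0.86). With the number range as a covariate, calls were lost for Nnt in liver (DBA/2J minus C57Bl/6J on HFD -0.52) and muscle Gpnmb (DBA/2J minus C57Bl/6J on RC -0.43, BALB/cJ minus DBA/2J on HFD 0.41).

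Quantile normalization gave calls for liver Glo1 (diet in BALB/cJ 0.22) and adipose Gpnmb (BALB/cJ minus C57Bl/6J on RC -1.02) and lost muscle Gpnmb (BALB/cJ minus DBA/2J on HFD 0.40). Muscle libraries with low hepatocyte markers lost calls for Alad (diet 0.18 overall and 0.66 in C57Bl/6J) and Gpnmb (DBA/2J minus C57Bl/6J on RC -0.26, BALB/cJ minus C57Bl/6J on HFD 0.59, diet in DBA/2J 0.52). A replicate block by animal number lost adipose Alad (BALB/cJ minus DBA/2J on HFD -0.70) and adipose Gpnmb (day 33 minus day 5 on HFD in DBA/2J 2.20) and changed no other call; same-numbered animals correlated over 0.1 in 28 of 76 liver pairs, 27 of 76 muscle pairs and 23 of 76 adipose pairs. The adipose Gpnmb rise with day also lost its call after median centring (2.22), with the other prior count (2.28) and without a variance trend (2.26).

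With only the groups compared, adipose BALB/cJ minus DBA/2J on HFD (Alad -0.73, Gpnmb -1.59) and Gpnmb BALB/cJ minus C57Bl/6J on HFD (-1.71) lost their calls, and Gpnmb BALB/cJ minus C57Bl/6J on RC gained one (-1.02). Without the islet-gene libraries, adipose Alad lost 2 calls (BALB/cJ minus DBA/2J on HFD -0.51, diet in BALB/cJ on day 33 -1.12) and Gpnmb gained 2 on RC (BALB/cJ minus C57Bl/6J -1.02, minus DBA/2J -0.75). With B and T cell markers as a covariate, Alad lost both (-0.03 and -0.40), Gpnmb lost BALB/cJ minus DBA/2J on HFD (-0.45) and gained RC calls against C57Bl/6J (DBA/2J -0.74, BALB/cJ -1.19). Among libraries low in these markers, Alad BALB/cJ minus DBA/2J on HFD turned to 0.02, and Gpnmb BALB/cJ on HFD lost its calls (-0.18 against C57Bl/6J, -0.69 against DBA/2J).

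Leaving out each animal in turn, muscle Gpnmb BALB/cJ minus DBA/2J on HFD ran from 0.41 to 0.56, with the call lost without any of 5 animals (2HF203, 2HF208, 3HF228, 3HF252 and 3HF258). Muscle Gpnmb day 33 minus day 5 on HFD in C57Bl/6J ran from 1.05 to 1.56 (call lost without 1HF209, 1HF259, 1HF225, 1HF249 or 1HF250). Adipose Alad BALB/cJ minus DBA/2J on HFD ran from -0.85 to -0.59 (call lost without any of 7 animals: 2HF203, 2HF231, 3HF201, 3HF203, 3HF208, 3HF230 and 3HF252), and the diet difference in BALB/cJ on day 33 from -1.80 to -1.12 (lost without 3HF208, 3RC208, 3RC209 or 3RC259). Adipose Gpnmb BALB/cJ minus C57Bl/6J on RC ran from -1.13 to -0.94 (call gained without 3HF201), and the day difference in DBA/2J on HFD from 1.87 to 2.63, with the call lost in 49 of 72 cases.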
